A study of Arabidopsis thaliana with 9 samples.

Results

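DFR (AT5G42800) and UF3GT (AT5G54060) encode enzymes of anthocyanin synthesis in Arabidopsis thaliana, and they are 2 of the 13286 genes that have a probe set of their own. They were found by symbol in a table that pairs probe sets with genes, each has 1 probe set, and both passed the filter on low values, which kept 17273 of 22746 probe sets. UF3GT passed it only through the 3 nontransgenic Dex arrays and DFR through these and 1 RGA-GR mock array, so their calls against nontransgenic Dex rest on the group that let them in. Transcripts were measured on 9 Affymetrix arrays, 3 per group, with RNA from inflorescences that held no flowers past stage 12 (stages 12 and earlier are unopened buds). All plants carried ga1-3 rga rgl2, so plants make little gibberellin and lack RGA and RGL2, DELLA proteins that repress responses to this hormone. The group called RGA-GR Dex had in addition a fusion of RGA with the glucocorticoid receptor and was sampled at 4 h of dexamethasone (Dex), the steroid that brings the fusion protein into the nucleus. RGA-GR mock was the same line at 4 h of mock treatment, and nontransgenic Dex was ga1-3 rga rgl2 without the transgene at 4 h of Dex. The promoter that drives RGA-GR and the number of independent lines are not given in the sources used here, and nontransgenic plants under mock treatment are not analysed here.

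Anthocyanins are red to purple flavonoid pigments. Early enzymes build dihydroflavonols, DFR (dihydroflavonol reductase) reduces these to leucoanthocyanidins, and glycosyltransferases and acyltransferases then decorate the pigment. UF3GT, also named UGT79B1 in the gene table, is a glycosyltransferase known to add xylose to the glucose that an anthocyanin already carries. Late genes such as DFR are known to be switched on by a complex of MYB, bHLH and WD40 proteins. In Arabidopsis seedlings, DELLA proteins are known to favour anthocyanin accumulation.

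DFR was highest in nontransgenic Dex, intermediate in RGA-GR mock and lowest in RGA-GR Dex. UF3GT was as low in RGA-GR mock as in RGA-GR Dex, and both were far under nontransgenic Dex. Each deposited value is a linear ratio, in most rows to the median of that row, and sets an array against other arrays, not a gene against other genes. The median over the 9 arrays is 0.681 for DFR and 0.105 for UF3GT, so neither was divided by its own median, and the divisor is not stated. In whole inflorescence samples, fewer cells of a type and less RNA per cell cannot be told apart.

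On the RGA-GR mock arrays, replicates 1 to 3, the ratio of DFR was 0.631, 0.983 and 0.681. On the RGA-GR Dex arrays it was 0.166, 0.0631 and 0.155, and on the nontransgenic Dex arrays 2.88, 2.68 and 2.87. The 3 groups did not overlap: every Dex array of the transgenic line lay below every mock array, and these below every nontransgenic array. That order without overlap was met by 134 of 17273 probe sets (0.776%). The nontransgenic arrays were close together, with an SD of 0.06 on the log2 scale (n = 3), against 0.34 for RGA-GR mock and 0.78 for RGA-GR Dex, where replicate 2 was lowest.

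The ratio of UF3GT was 0.102, 0.105 and 0.0768 on the RGA-GR mock arrays. It was 0.0633, 0.151 and 0.0834 on the RGA-GR Dex arrays and 1.22, 0.912 and 1.36 on the nontransgenic Dex arrays. The mock and Dex arrays of the transgenic line overlapped, with the Dex arrays spread around the mock values, while all 6 lay below the nontransgenic arrays. All RGA-GR Dex arrays lay below all nontransgenic arrays in 17.6% of the 17273 probe sets, and all RGA-GR mock arrays did so in 16.6%. The SD on the log2 scale was 0.25 for RGA-GR mock, 0.64 for RGA-GR Dex and 0.30 for nontransgenic Dex (n = 3 each). No value of either gene was at 0.01, the smallest deposited ratio.

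**Figure D1:**
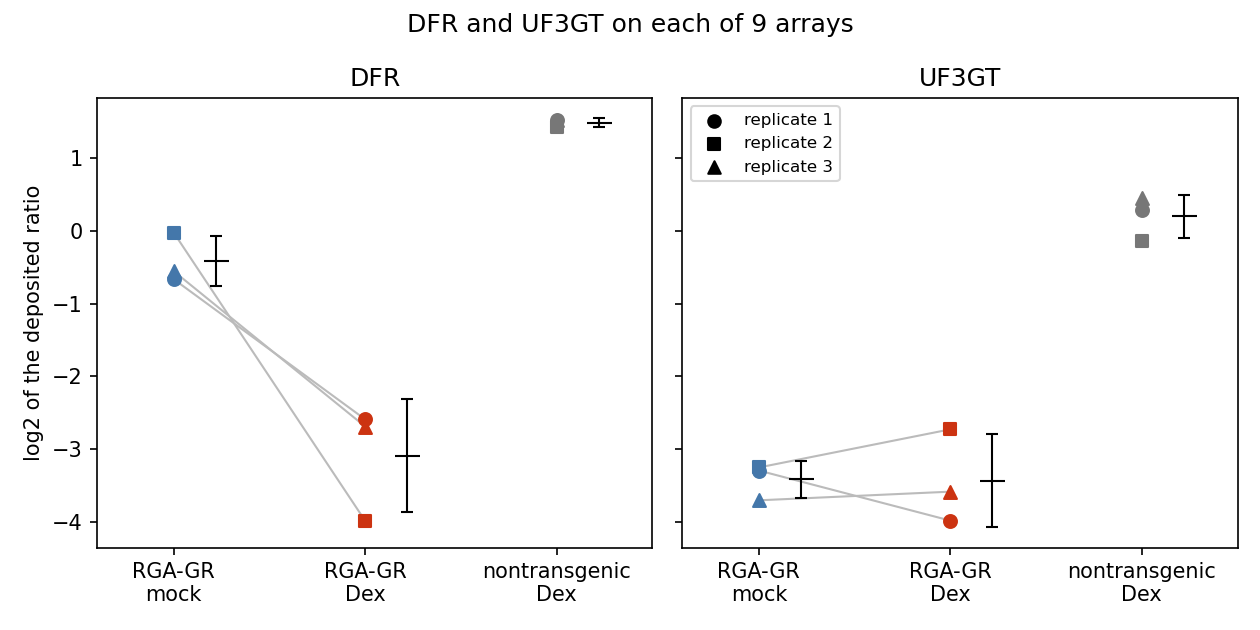
The log2 of the deposited ratio of DFR (left) and UF3GT (right) on 9 arrays, with marker shapes for replicates 1 to 3, grey lines joining RGA-GR arrays that share a number, and black bars for the group mean ± SD (n = 3). DFR steps down from nontransgenic Dex through RGA-GR mock to RGA-GR Dex, whereas UF3GT is low on all 6 RGA-GR arrays.

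Setting RGA-GR Dex beside RGA-GR mock addresses the response to activated RGA, although Dex itself also differs between these groups. DFR was lower after Dex by a factor of 6.38 (log2 difference -2.67 ± 0.52, moderated SE from limma), with a 95% interval from -3.83 to -1.52. With an offset of 0.0894 added before log2 the factor was 3.97. All Dex arrays lay below all mock arrays, as in 730 of 17273 probe sets (4.23%). DFR had the 14th smallest unadjusted p (0.000402) and the 27th largest fall of all probe sets, but its adjusted p was 0.453 (limma with Benjamini-Hochberg), so it did not pass the threshold of 0.05. No probe set passed that threshold here (0 of 17273, 0%). At an unadjusted p under 0.05 there were 1525 (8.83%) in limma, 644 of them lower after Dex (3.73%), and with eBayes without trend 1 probe set passed after adjustment.

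UF3GT differed by -0.02 ± 1.0 in that comparison (adjusted p = 0.997 in limma). The 95% interval ran from -2.24 to 2.21, so the arrays leave room for a change of several fold in either direction. The moderated SE is wide because eBayes with trend takes its prior from probe sets with similarly low mean log2 ratios. Without the trend the SE was 0.33.

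RGA-GR arrays with the same replicate number resembled each other across probe sets, and DFR was lower after Dex in all 3 such pairs. The pairs differed by -1.93, -3.96 and -2.14, so pair 2 fell furthest, by a factor of 15.6. UF3GT differed by -0.69, 0.52 and 0.12, with no common sign. When the replicate number entered as a block for the transgenic arrays, DFR had an adjusted p of 0.124 in limma, still above the threshold.

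Poly-A spike-in signal set RGA-GR replicates 1 and 2 apart from the other 5 arrays, a split that the labels do not name. The mean log2 ratio over 12 spike-in probe sets was -3.83 to -3.04 on those 4 arrays and -0.23 to 1.20 on the rest. DFR differed after Dex by -2.94 within the 4 arrays (adjusted p = 0.947, limma) and by -2.14 within the other 5. In those 5, which hold 1 array of each RGA-GR group so that the spread comes from nontransgenic Dex alone, the adjusted p was 0.0433. With the split as a block the difference stayed at -2.67 (adjusted p = 0.313), and UF3GT was -0.08 and 0.12 within the 2 sets of arrays.

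Pollen markers also differed between these groups, and tapetum markers did so less evenly. Against nontransgenic Dex, 6 of 7 tapetum means were lower in each RGA-GR group, while AT5G52160 was higher in RGA-GR Dex (1.77) and RGA-GR mock (1.75). The probe table names 14 of 23 listed pollen loci and 7 of 25 listed tapetum loci, and all of those named passed the filter. Summed ratios of the 14 pollen markers were 42.5 to 58.4 on the nontransgenic arrays. They were 7.01 to 21.6 on the RGA-GR mock arrays and 1.88 to 13.0 on the RGA-GR Dex arrays. The summed ratios of the 7 tapetum markers were 8.08 to 10.5, 6.45 to 7.87 and 4.06 to 7.27. After Dex, 13 of 14 pollen means and 5 of 7 tapetum means were lower and 0 of either passed in limma, with medians of -1.60 and -0.66 against 0.08 over all probe sets. None of these markers was listed at 0.

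The falls were not shared evenly among the pairs. In pair 1 the median over pollen markers was -0.80, the lowest pollen marker was at -1.47, and DFR (-1.93) was below all 14 pollen and all 7 tapetum markers. In pair 2 the pollen median was -2.45 and the lowest pollen marker was at -4.18, the 1 marker below DFR (-3.96). In pair 3 the pollen median was -1.42 and the lowest pollen marker was at -3.34, and 5 pollen markers and 1 tapetum marker lay below DFR (-2.14). The tapetum medians were 0.17, -0.75 and -0.98 in pairs 1 to 3. The part of pollen and tapetum RNA in the difference of DFR was not tested.

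**Figure D2:**
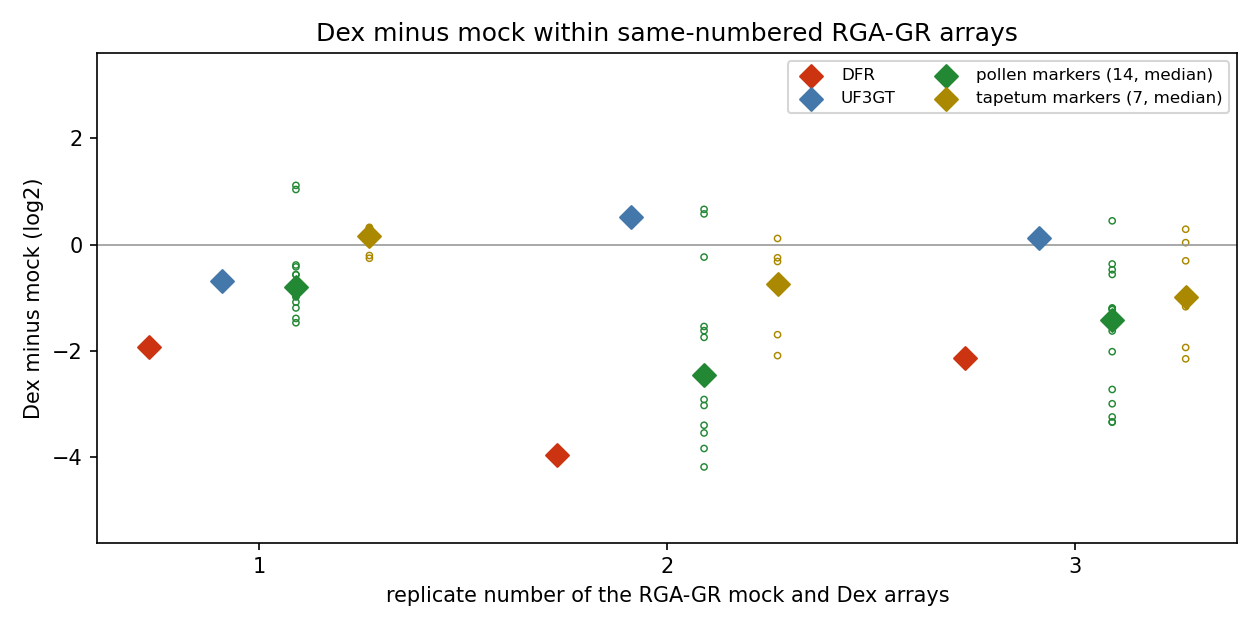
Dex minus mock on the log2 scale (vertical axis) within RGA-GR arrays of the same number (horizontal axis), for DFR, UF3GT and the medians of 14 pollen and 7 tapetum markers (diamonds), with single markers as open circles. DFR lies at -1.93, -3.96 and -2.14, with 0, 1 and 5 of the 14 pollen markers and 0, 0 and 1 of the 7 tapetum markers below it in pairs 1, 2 and 3.

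Both RGA-GR Dex and nontransgenic Dex received the steroid, so their comparison addresses the transgene and its activated protein. DFR was lower by a factor of 23.9 (-4.58 ± 0.52, 95% interval -5.74 to -3.42, adjusted p = 0.00316 in limma), the 30th largest fall of 17273. UF3GT was lower by a factor of 12.4 (-3.63 ± 1.0, interval -5.85 to -1.41, adjusted p = 0.0243). Of all 17273 probe sets, 27% passed here, 9.44% passed as lower in RGA-GR Dex, and in 17.6% all RGA-GR Dex arrays lay below all nontransgenic arrays. Means were lower for 14 of 14 pollen markers (median -4.03) and 6 of 7 tapetum markers (median -1.15), of which 11 and 4 passed, and 1 tapetum marker passed as higher. With an offset of 0.0894 added before log2 the factors were 13.7 for DFR and 6.69 for UF3GT, so the size of these falls depends on how low ratios are treated. The deposited values do not show whether the low ratios of UF3GT, or of DFR on the RGA-GR Dex arrays, are above background. DFR passed in all 24 alternatives run, with differences from -4.83 to -3.77. In the fit without the filter UF3GT also passed (adjusted p = 0.0198). UF3GT passed in 17 of 23 and was lost without RGA-GR Dex replicate 1 (adjusted p = 0.0752), replicate 2 (0.0839) or replicate 3 (0.0819), with differences of -3.36, -3.98 and -3.55.

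RGA-GR mock against nontransgenic Dex sets the uninduced line against plants without the transgene. These groups differ in both the transgene and Dex, which cannot be told apart. UF3GT was lower by a factor of 12.3 (-3.62 ± 1.0, adjusted p = 0.0389 in limma), the 25th largest fall, and DFR by a factor of 3.74 (-1.90 ± 0.52, adjusted p = 0.0383). With the offset the factor was 6.75 for UF3GT and 3.44 for DFR. Here 15.3% of probe sets passed, 6.19% passed as lower in RGA-GR mock, and in 16.6% all mock arrays lay below all nontransgenic arrays. Means were again lower for 14 of 14 pollen markers (median -2.13) and 6 of 7 tapetum markers (median -0.26), of which 4 and 1 passed, and 1 tapetum marker passed as higher. The 2635 probe sets called rose to 4927 with the replicate block for the transgenic arrays, where both genes passed (adjusted p = 0.0276 for DFR and 0.0213 for UF3GT).

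Both calls of RGA-GR mock against nontransgenic Dex were lost in limma in several fits with 1 array left out, while the differences changed little. DFR no longer passed without RGA-GR mock replicate 1 (adjusted p = 0.0808), 2 (0.0862) or 3 (0.0635), or without nontransgenic Dex replicate 1 (0.212), 2 (0.205) or 3 (0.206), with differences from -2.10 to -1.78. Without 1 of the nontransgenic arrays its difference was -1.89, -1.94 or -1.89 and its SE 0.903, 0.916 or 0.905, against 0.52 in the main fit. UF3GT no longer passed without RGA-GR mock replicate 1 (0.0897), 2 (0.115) or 3 (0.0871), or without RGA-GR Dex replicate 1 (0.0569), 2 (0.0786) or 3 (0.0667), with differences from -3.70 to -3.47. The RGA-GR Dex arrays are not in this comparison. Without 1 of them the difference of UF3GT stayed at -3.62 and its SE was 1.12, 1.22 or 1.16, against 1.0 in the main fit. Without RGA-GR mock replicate 2 no probe set at all passed in limma, with 4341 at an unadjusted p under 0.05. Within the 5 arrays with spike-in signal, which hold only 1 RGA-GR mock array, DFR differed by -2.04 and UF3GT by -3.90. With that split as a block neither passed (adjusted p = 0.106 and 0.0650).

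The comparisons share arrays, so the differences of a gene add up. For DFR, the difference of -4.58 is the sum of -1.90 in the uninduced line and -2.67 after Dex. For UF3GT, the difference of -3.63 is the sum of -3.62 and -0.02. The 25S rRNA control signal also separated the lines: its log2 ratio was -4.12 to -3.58 on the nontransgenic arrays, -1.01 to 4.15 on the RGA-GR mock arrays and 2.93 to 4.71 on the RGA-GR Dex arrays. Its part in these differences was not tested.

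**Figure D3:**
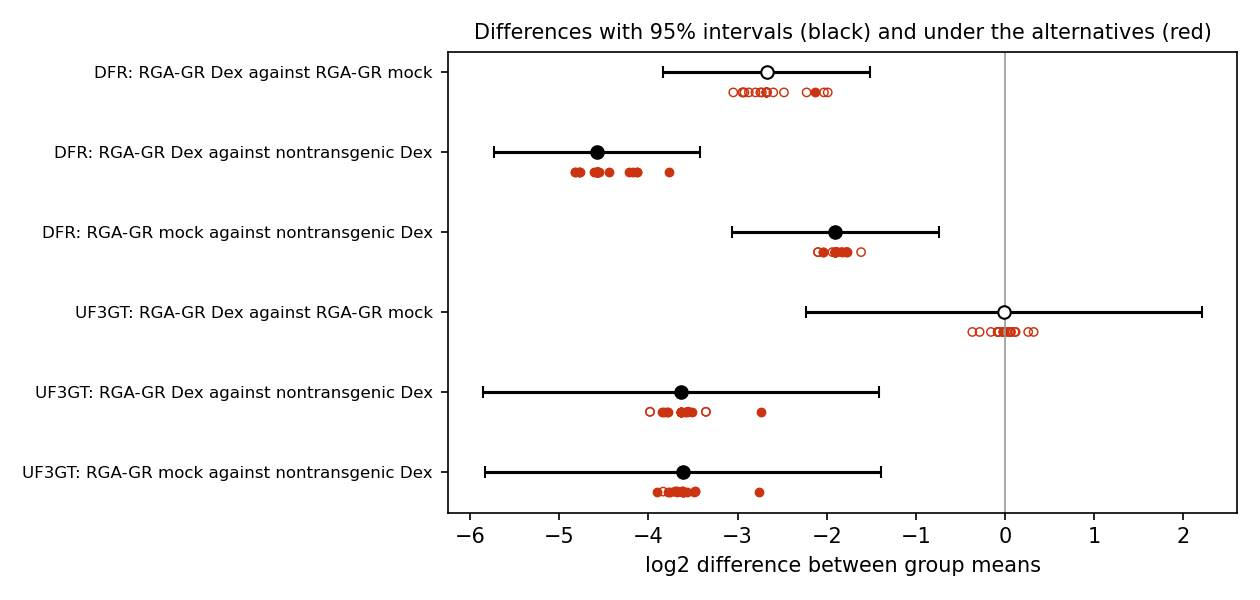
Log2 differences between group means (horizontal axis) for DFR and UF3GT in the 3 comparisons, with 95% intervals from limma (black, filled where the adjusted p was under 0.05) and the values under the alternatives (red, filled where they passed). For RGA-GR Dex against nontransgenic Dex DFR passes under every alternative, while UF3GT stays near 0 in RGA-GR Dex against RGA-GR mock.

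Within an array, the log2 ratio of DFR minus that of UF3GT shows whether the 2 ratios moved by unequal amounts. UF3GT was under the 40th percentile of the array on every RGA-GR array, and whether its ratio could fall further after Dex is not known. DFR was under that percentile on every RGA-GR Dex array. DFR minus UF3GT was 2.63, 3.23 and 3.15 on the RGA-GR mock arrays and 1.39, -1.26 and 0.89 on the RGA-GR Dex arrays. On the nontransgenic Dex arrays it was 1.24, 1.56 and 1.07. The mock arrays lay above both other groups, and the Dex groups overlapped each other. From mock to Dex the mean changed by -2.66 (exact permutation p = 0.1, two-sided), and RGA-GR mock was above nontransgenic Dex by 1.71 (exact permutation p = 0.1). RGA-GR Dex differed from nontransgenic Dex by -0.95 (exact permutation p = 0.3). With 3 arrays against 3 the smallest p is 0.1, and over these 3 comparisons the Benjamini-Hochberg values from the exact permutation tests were 0.15, 0.15 and 0.3, so none can pass 0.05.

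Few other genes of the route can be read. Of 33 loci listed for phenylpropanoid, flavonoid, anthocyanin and proanthocyanidin enzymes, the probe table names 10, and 6 passed the filter, DFR and UF3GT among them. Of 28 listed regulators it names 1. The late anthocyanin list has 3 genes that passed the filter. As 2 of these 3 are DFR and UF3GT, the list adds 1 gene to them and its median is one of their own values. That gene, UGT78D2, encodes the glucosyltransferase that puts the first glucose on anthocyanidins and flavonols.

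UGT78D2 had ratios of 0.821, 0.685 and 1.0 on the RGA-GR mock arrays, 0.962, 1.09 and 0.946 on the RGA-GR Dex arrays and 1.13, 1.21 and 1.22 on the nontransgenic Dex arrays. All RGA-GR arrays lay below the nontransgenic arrays, by little. Among all probe sets, 17.6% had every RGA-GR Dex array below the nontransgenic arrays and 16.6% every RGA-GR mock array. Its differences from nontransgenic Dex were -0.25 ± 0.18 in RGA-GR Dex (adjusted p = 0.323, limma) and -0.53 ± 0.18 in RGA-GR mock (adjusted p = 0.0749). CHIL, a chalcone isomerase-like protein gene that aids the first step of flavonoid synthesis, differed by -0.56 ± 0.27 and -0.74 ± 0.27 there and by 0.17 ± 0.27 after Dex against mock, and did not pass in these.

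AT5MAT encodes the transferase that adds malonate to anthocyanins and did not pass the filter on low values. Its ratio was 0.552, 0.123 and 0.114 on the RGA-GR mock arrays, 0.203, 0.237 and 0.0896 on the RGA-GR Dex arrays, and 0.591, 0.674 and 0.752 on the nontransgenic Dex arrays. All 6 RGA-GR arrays were below the nontransgenic arrays, with RGA-GR mock replicate 1 close to them. Of the probe sets that passed the filter, 17.6% showed this for RGA-GR Dex and 16.6% for RGA-GR mock. In a fit without the filter it differed from nontransgenic Dex by -2.04 ± 0.96 in RGA-GR Dex (adjusted p = 0.172, limma) and by -1.76 ± 0.96 in RGA-GR mock (adjusted p = 0.279). AT4G14090, the other late anthocyanin locus under the filter, overlapped between all groups.

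The flavonol branch leaves the route before DFR. UGT78D1, which encodes a flavonol rhamnosyltransferase, had differences of -0.28 ± 0.24 in RGA-GR Dex and -0.33 ± 0.24 in RGA-GR mock against nontransgenic Dex, and did not pass. AT1G06000, listed with flavonol glycosylation and without a name in the gene table, fell in RGA-GR Dex, by 1.77 on the log2 scale (SE 0.35, adjusted p = 0.00787, limma) and by 1.17 in RGA-GR mock (adjusted p = 0.0486). The second of these falls was lost in 15 of 24 alternatives. Its ratios were 1.04, 0.473 and 1.0 in RGA-GR mock, 0.745, 0.455 and 0.414 in RGA-GR Dex, and 2.09, 1.50 and 1.79 in nontransgenic Dex. The RGA-GR groups overlapped each other and lay below the nontransgenic arrays, as 16.6% (RGA-GR mock) and 17.6% (RGA-GR Dex) of probe sets did. UGT78D3, for flavonol arabinosylation, and BAN, the anthocyanidin reductase gene that starts proanthocyanidin synthesis, did not pass the filter and overlapped between all groups.

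**Figure D4:**
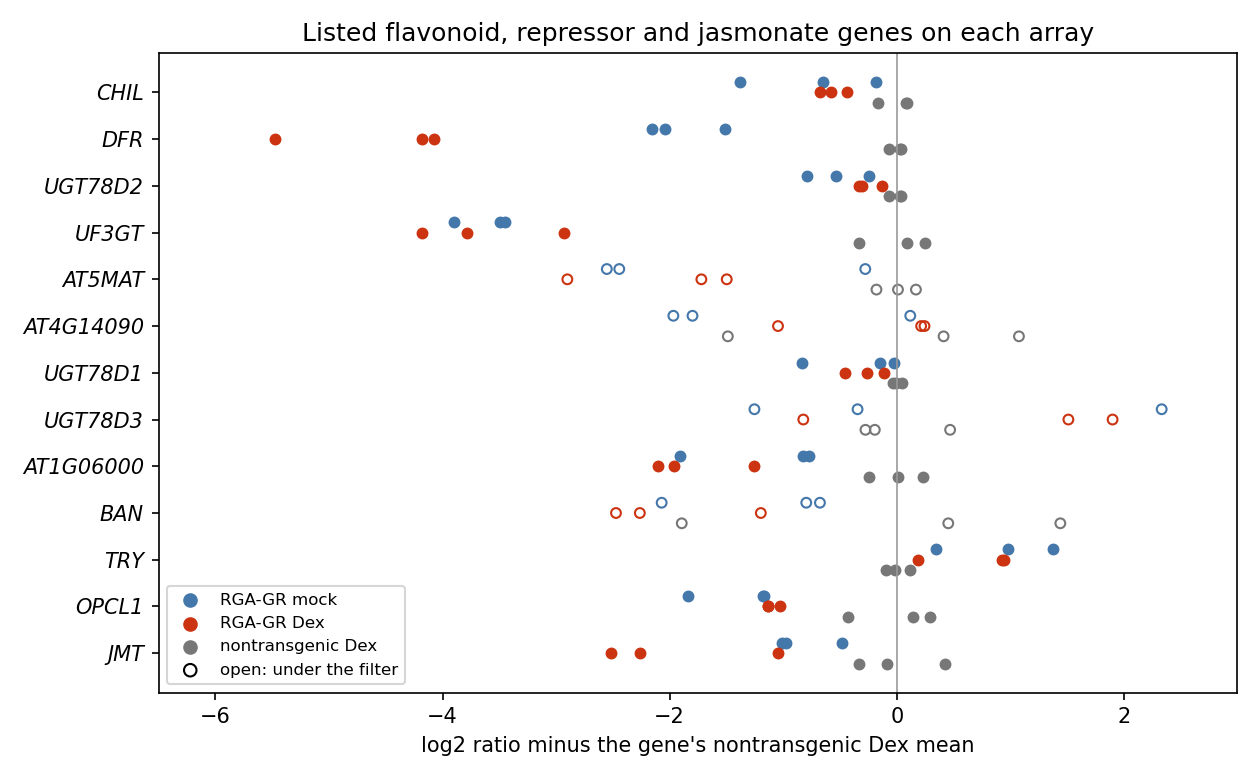
The log2 ratio of each listed gene on each array minus the gene's mean over the 3 nontransgenic Dex arrays (horizontal axis), with open circles for genes under the filter on low values. DFR and UF3GT reach farthest left in RGA-GR Dex, and UGT78D2, UGT78D1 and CHIL lie closer to 0.

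Among regulators, TRY, an R3-type MYB protein gene known to repress MYB-bHLH complexes, was the 1 gene named. Its means were higher than in nontransgenic Dex by 0.69 ± 0.28 in RGA-GR Dex (adjusted p = 0.0926, limma) and by 0.90 ± 0.28 in RGA-GR mock (adjusted p = 0.0541), and all RGA-GR arrays lay above the nontransgenic arrays. The share of all probe sets with their arrays in that order is not given here, so nothing is read from it. In these comparisons 27% and 15.3% of all probe sets passed in either direction. The differences of TRY passed in 5 and 7 of 24 alternatives. Jasmonate is a hormone known to favour anthocyanin synthesis, and 2 of 16 listed jasmonate genes could be read. Against nontransgenic Dex, 2 of 2 passed as lower in RGA-GR Dex (median -1.52) and 1 of 2 in RGA-GR mock (median -1.11), where 9.44% and 6.19% of all probe sets passed as lower. OPCL1, a gene of jasmonate synthesis, fell in both RGA-GR groups as UF3GT did, with differences of -1.10 ± 0.25 in RGA-GR Dex and -1.39 ± 0.25 in RGA-GR mock, which were lost in 2 and 3 of 24 alternatives.

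JMT, which encodes the methyltransferase that forms methyl jasmonate, had ratios of 1.41, 1.0 and 0.975 in RGA-GR mock, 0.949, 0.343 and 0.410 in RGA-GR Dex and 1.56, 1.84 and 2.64 in nontransgenic Dex. As for DFR, the 3 groups did not overlap and stood in the same order, which 134 of 17273 probe sets (0.776%) met. The difference of JMT was -1.12 ± 0.36 after Dex against mock (adjusted p = 0.533, limma). JMT fell by 1.94 in RGA-GR Dex relative to nontransgenic Dex (adjusted p = 0.00662, limma), a call lost in 1 of 24 alternatives. In RGA-GR mock it differed from nontransgenic Dex by -0.82 ± 0.36 and, unlike DFR, did not pass (adjusted p = 0.140, limma).

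Glycosyltransferases of the UGT family were listed after the data were seen. The list holds genes with a UGT symbol and UF3GT, so genes named only by locus, such as AT1G06000 and AT5G54010, are outside it. Of 48 named members 31 passed the filter. Against nontransgenic Dex, 6 passed as higher and 2 as lower in RGA-GR Dex, with a family median of -0.09. In RGA-GR mock 4 passed as higher and 4 as lower, with a median of -0.18. Of all probe sets 27% and 15.3% passed in these comparisons, 9.44% and 6.19% as lower, and nothing is read from the family's counts. UF3GT had the lowest difference of the 31 in both. It passed the filter only through the nontransgenic Dex arrays, where it is high, so this rank is a description. Members under the filter were not ranked. After UF3GT came UGT76E12 in RGA-GR mock (-2.78 ± 0.66, adjusted p = 0.026 in limma, lost in 7 of 24 alternatives). UGT76D1 came second in RGA-GR Dex (-1.90 ± 1.12), and neither it nor UGT76E12 (-1.89 ± 0.66) passed there. The other listed member that passed as lower in RGA-GR Dex was UGT74B1 (-1.15 ± 0.23), a glucosyltransferase gene of glucosinolate synthesis. After Dex against mock 0 of 31 passed in limma.

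Genes next to DFR and UF3GT were read for the 3 nearest measured loci on each side. None of the 6 around DFR passed as lower in any comparison. The lowest against nontransgenic Dex was AT5G42830, at -1.40 in RGA-GR Dex and -1.69 in RGA-GR mock (adjusted p = 0.0668 and 0.0507, limma). U2AF35B (AT5G42820), a splicing factor gene 2 genes away, passed as higher than in nontransgenic Dex in RGA-GR Dex (1.75) and in RGA-GR mock (1.31). Of all probe sets 27% and 15.3% passed in these comparisons, 9.44% and 6.19% as lower. Of the 6 around UF3GT, AT5G54095 fell in RGA-GR Dex against nontransgenic Dex (-4.43, adjusted p = 0.00889, limma), AT5G54110 rose there (0.89), and none passed in RGA-GR mock. The nearest measured locus on one side of UF3GT, 9 genes away, is AT5G54010, the related glycosyltransferase gene UGT79B6. It differed from nontransgenic Dex by 0.48 in RGA-GR Dex (adjusted p = 0.110, limma) and -0.05 in RGA-GR mock (adjusted p = 0.880).

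Likeness was measured as Pearson's r of log2 ratios over the 9 arrays, which share the group structure, and is a description. DFR and UF3GT correlated at r = 0.75 (Spearman's rho 0.65), and UF3GT stood at rank 640 among the genes by likeness to DFR. The 8 genes most like DFR were AT4G32460 (r = 0.97), AT2G34050, AT2G01610, AT5G22440, AT5G46770, AT5G20740, AT3G48490 and AT3G05280 (r = 0.95). AT5G46770 also matched DFR in size, with mean log2 ratios of -0.66, -3.29 and 1.49 in RGA-GR mock, RGA-GR Dex and nontransgenic Dex, where DFR had -0.41, -3.09 and 1.49. AT3G48490 (-2.48 after Dex against mock) was the other with a difference of over 1 in that comparison.

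The 8 genes most like UF3GT were AT1G20070 (r = 0.98), AT5G38720, AT3G21970, AT3G55605, AT3G22845, AT5G05250, AT3G50910 and AT1G47400 (r = 0.95). Their differences after Dex against mock ran from -0.57 in AT3G21970 to 0.09 in AT3G55605. Against nontransgenic Dex, AT1G47400 differed by -5.48 in RGA-GR Dex and -5.05 in RGA-GR mock, and AT5G05250 by -3.32 and -2.98. The lists changed with the measure: by Spearman's rho 2 of the 8 genes stayed among the 8 nearest DFR and 0 stayed for UF3GT. Leaving out 1 array kept 1 to 6 of the 8 for DFR and 2 to 7 for UF3GT, with fewest for DFR without RGA-GR Dex replicate 2 and for UF3GT without RGA-GR Dex replicate 1.

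Of 10 listed photosynthetic tissue markers 2 could be read, and these moved opposite to both genes in the comparisons with nontransgenic Dex. The summed ratio of the 2 measured, RCA and LHCB4.1, was 1.95 to 2.31 on the RGA-GR arrays and 1.07 to 1.12 on the nontransgenic arrays. Both rose in each RGA-GR group (median 0.94 in RGA-GR Dex and 1.03 in RGA-GR mock), where 27% and 15.3% of all probe sets passed in either direction, and RCA was lost in 2 and 10 and LHCB4.1 in 11 and 6 of 24 alternatives. After Dex against mock their median was -0.10 and 0 of 2 passed in limma. The part of tissue makeup in the lower levels of DFR and UF3GT was not tested.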

How the data were processed

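RNA from inflorescences was hybridised to Affymetrix arrays, per the labels, and the submitters' processing notes name GCOS. The authors deposited linear ratios, judging by the values, since 15112 of 22810 rows have a median of 1. The other 7698 have a lower median, and their divisor is not stated. The log2 of the ratio was used. The 64 control probe sets were left out, and probe sets under the 40th percentile of the array on more than 6 of 9 arrays were dropped. The probe table pairs 13513 probe sets with a single gene, 503 with several and 8730 with none, and 13436 of the first kind were found in the gene table of TAIR10.1, used for names and gene order. RGA, RGL2 and GA1 are not analysed here.

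A single limma fit over 9 arrays (version 3.58.1, R 4.3.3, lmFit and eBayes with trend) gave two-sided tests. They were adjusted by Benjamini-Hochberg over 17273 probe sets with a threshold of 0.05. The fit was also run on simulated data with independent errors, without replicate pairs or the spike-in split. That run does not speak for these features of the arrays. The design text calls the replicates biologically independent, and the number of arrays limits the precision. The members and lists were chosen with earlier results of these data known. Genes named are DFR, UF3GT, the readable genes of the lists and, for likeness, the 8 genes with the highest Pearson correlation. The UGT family and neighbouring genes were added after seeing the data. RGA-GR mock and Dex arrays that share a replicate number count as pairs, since their deviations from group means correlated across probe sets (r = 0.332, 0.118 and 0.325). The offset alternative added 0.0894 before log2, and the closing section gives what the other alternatives changed. The spike-in split was read from control probe sets. Figures were drawn with matplotlib 3.10.9.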

Additional observations from a re-analysis of the deposited data

How the results depend on the processing

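DFR in RGA-GR Dex against nontransgenic Dex kept its direction and its call in all 24 alternatives run. UF3GT in RGA-GR Dex against RGA-GR mock did not pass in any of 24 and ran from -0.37 to 0.32. DFR in that comparison stayed lower in all 25 (-3.05 to -1.99) and passed in 1, within the 5 arrays with spike-in signal (-2.14). In limma, DFR in RGA-GR mock against nontransgenic Dex lost its call after quantile normalization (-1.61, adjusted p = 0.122), with the spike-in split as a block (-1.77), without both RGA-GR arrays numbered 2 (-2.10, chosen after seeing the data), and over single arrays left out, where it ran from -2.10 to -1.78. UF3GT lost its call in RGA-GR Dex against nontransgenic Dex without both RGA-GR arrays numbered 1, 2 or 3 (-3.36, -3.98 and -3.55), and single arrays left out gave -3.98 to -3.36. In RGA-GR mock against nontransgenic Dex it did so with eBayes with trend and robust (-3.62), the spike-in split as a block (-3.84) and without both RGA-GR arrays numbered 1, 2 or 3 (-3.68, -3.70 and -3.47), and single arrays left out gave -3.78 to -3.47. Leaving arrays out also leaves fewer degrees of freedom, and the other causes were not tested. UF3GT did not pass the filter at the 60th percentile and has no value there.

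DFR passed, and UF3GT passed, in both comparisons with nontransgenic Dex with an offset of 0.0894 before log2, which gave -3.77 and -1.78 for DFR and -2.74 and -2.76 for UF3GT. With the replicate block over all 9 arrays or within the transgenic line, no call of DFR or UF3GT changed. DFR minus UF3GT ran from -3.18 to -1.86, from -1.47 to -0.15 and from 0.97 to 1.90 in the 3 comparisons, with no call possible, and the -0.15 was without RGA-GR Dex replicate 2.

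Counts of probe sets called moved by over 1.5 times as follows. Between RGA-GR Dex and RGA-GR mock the count of 0 became 1 with eBayes without trend, 50 within the 5 arrays with spike-in signal, 2 without both RGA-GR arrays numbered 1, and 0 to 15 over single arrays left out, 15 without RGA-GR Dex replicate 1. For RGA-GR Dex against nontransgenic Dex the 4660 became 2906 after quantile normalization, 2690 at 2-fold or more, 1134 without both RGA-GR arrays numbered 2, and 1874 to 4881 over single arrays left out, 1874 without RGA-GR Dex replicate 2 and 2961 and 3099 without nontransgenic Dex replicates 1 and 2. For RGA-GR mock against nontransgenic Dex the 2635 became 1123 after quantile normalization, 4927 with the replicate block within the transgenic line, 1412 with the spike-in split as a block, 1029 within the 5 arrays, 1611 at 2-fold or more, 0 without both RGA-GR arrays numbered 2 (limma, 4347 at an unadjusted p under 0.05), and 0 to 2773 over single arrays left out, 0 and 1341 without RGA-GR mock replicates 2 and 1 and 1164, 1116 and 1357 without nontransgenic Dex replicates 1, 2 and 3.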
